A study of Caenorhabditis elegans with 2 samples.

Results

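Binding of the nuclear hormone receptor NHR-11 inside introns was examined in L4 larvae of Caenorhabditis elegans, from the list of peaks that the authors kept after an irreproducible discovery rate (IDR) threshold. The summit of a peak is the position that the authors gave as its point of highest signal. A peak was taken as intronic when its summit lay in a protein-coding gene but in none of its annotated exons or those of any other gene, exons of piRNA genes aside. It also had to lie outside the promoter window of every protein-coding gene, which ran from 1000 bp before the annotated gene start to 200 bp after it. Of 2719 thresholded peaks, 551 met this rule, a share of 20.3% with a 95% exact Clopper-Pearson interval of 18.8 to 21.8. Of the others, 1300 summits lay in promoter windows, 639 in intergenic sequence and 229 in exons outside promoter windows. The rule used positions alone and no signal, although every peak in the list had passed the authors' threshold.

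The data came from chromatin immunoprecipitation with sequencing (ChIP-seq) of NHR-11 fused to eGFP. There was 1 group of 2 biological replicates, both whole animals of strain OP305, pooled male and female, at the L4 stage and of unknown age. The strain carries unc-119(ed3) on chromosome III and the integrated transgene wgIs305, which holds the tagged nhr-11, and the promoter that drives it is not given in the labels. The labels give nhr-11 as the antibody, a size range of 150-350 and a possible control experiment, which was not analysed here. All tissues of the larva were combined, so the tissue in which a site was bound cannot be told apart. With 1 group and n = 2, no difference was tested. Peaks of 1 library are not replicates, and the intervals given for shares and densities cover counting error only.

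NHR-11 belongs to the nuclear hormone receptors, transcription factors with a zinc finger DNA-binding domain and a ligand-binding domain, a family that is greatly expanded in nematodes. Receptors of this family bind short core sites in DNA and raise or lower transcription of nearby genes. Introns can hold enhancers, start sites of shorter transcripts and genes for small RNAs, and in C. elegans most introns are short while a minority run to several kilobases.

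The sequences within 50 bp of the 10 strongest intronic summits are shown in plus strand letters of build ce11. They were picked by signal and not by motif. Capitals mark the worm promoter motif CTGCGTC, the repeat GAGAGA and the E-box CACGTG, with either strand read for each.
nhr-19 (chrII:9603598-9603698): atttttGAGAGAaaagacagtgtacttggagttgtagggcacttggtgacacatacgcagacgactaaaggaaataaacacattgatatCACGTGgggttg
mom-1 (chrX:6296507-6296607): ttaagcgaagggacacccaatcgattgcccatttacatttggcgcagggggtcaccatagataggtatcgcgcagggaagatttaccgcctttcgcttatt
Y111B2A.12 (chrIII:12612589-12612689): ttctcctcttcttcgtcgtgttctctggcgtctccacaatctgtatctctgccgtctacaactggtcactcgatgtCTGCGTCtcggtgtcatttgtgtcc
mnk-1 (chrII:10548967-10549067): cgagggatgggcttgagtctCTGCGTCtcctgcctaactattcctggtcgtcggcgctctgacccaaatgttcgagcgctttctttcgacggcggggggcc
mnk-1 (chrII:10552092-10552192): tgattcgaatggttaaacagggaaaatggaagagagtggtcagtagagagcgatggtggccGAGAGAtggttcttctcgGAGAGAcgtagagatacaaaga
Y41G9A.17 (chrX:2997079-2997179): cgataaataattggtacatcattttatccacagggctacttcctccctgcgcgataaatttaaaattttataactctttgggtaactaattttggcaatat
aak-2 (chrX:16797013-16797113): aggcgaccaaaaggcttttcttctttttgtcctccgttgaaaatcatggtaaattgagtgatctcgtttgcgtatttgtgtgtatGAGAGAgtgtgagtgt
epg-9 (chrIV:2602094-2602194): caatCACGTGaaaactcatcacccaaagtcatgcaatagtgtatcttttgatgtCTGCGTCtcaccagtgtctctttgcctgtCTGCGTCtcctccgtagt
Y43F8B.2 (chrV:19529343-19529443): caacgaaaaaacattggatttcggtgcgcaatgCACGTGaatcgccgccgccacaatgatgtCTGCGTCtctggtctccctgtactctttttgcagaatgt
zip-2 (chrIII:833838-833938): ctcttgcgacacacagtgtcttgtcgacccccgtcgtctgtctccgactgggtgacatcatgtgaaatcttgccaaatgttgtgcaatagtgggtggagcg
CTGCGTC was present in 4 of these 10 sequences, GAGAGA in 3 and CACGTG in 3. The other 3, in mom-1, Y41G9A.17 and zip-2, held none of these motifs.

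The strongest intronic peak lay in nhr-19, which encodes another nuclear hormone receptor, at position 9603648 of chromosome II. Its deposited signal, a measure of peak strength whose scale the sources used here do not give, was 621 in the list over both replicates. The matching peaks had a signal of 291 in replicate 1 and 329 in replicate 2. Both replicates thus placed it at the top of the intronic peaks, at rank 7 of all peaks in replicate 1 and rank 5 in replicate 2. It lay 1878 bp after the annotated start of nhr-19, in the second intronic gap, a stretch of 4213 bp that no annotated transcript covers with an exon. The next peak by signal lay in mom-1, which encodes a Porcupine homologue needed to secrete Wnt ligands. Its signal was 369 over both replicates, with 167 in replicate 1 and 202 in replicate 2, and the nearest protein-coding start was that of cest-16 and not of mom-1. The third by signal lay in Y111B2A.12, with 363 over both replicates, 171 in replicate 1 and 194 in replicate 2.

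mnk-1, which encodes a MAP kinase interacting kinase, held a pair of the 25 strongest peaks in 1 gap of 4572 bp. The first, 6027 bp after the gene start, had a signal of 351, with 168 in replicate 1 and 187 in replicate 2. The second, 2902 bp after the gene start, had 343, with 182 in replicate 1 and 157 in replicate 2. Which of the pair was stronger thus differed between the replicates. aak-2 encodes a catalytic subunit of AMP-activated protein kinase, and its first gap held a peak of 308, with 144 in replicate 1 and 173 in replicate 2. In the first gap of mpk-1, the ERK gene, a peak had 240.2, with 104.2 in replicate 1 and 135 in replicate 2. unc-43, which encodes CaM kinase II, had a peak of 219, with 105 in replicate 1 and 118 in replicate 2. pkg-2 encodes a cGMP-dependent protein kinase and held a pair of peaks with 234 and 215 over both replicates.

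epg-9, which encodes a homologue of the autophagy protein ATG101, had a peak of 298, with 136 in replicate 1 and 163 in replicate 2. zip-2, a bZIP transcription factor of the response to pathogens, had 260.1, with 134 in replicate 1 and 126 in replicate 2. daf-14, a SMAD of the dauer pathway, had 238, with 124 in replicate 1 and 119.04 in replicate 2. lin-14 encodes a nuclear protein that times early larval cell fates, and its strongest peak had 215, with 101 in replicate 1 and 112.01 in replicate 2. High ranks in each replicate follow in part from picking peaks by their signal over both. All 25 strongest intronic peaks were among the 2719 strongest peaks of both replicates. They went no lower than rank 245 in replicate 1 and 270 in replicate 2. They lay in 22 host genes, 16 of the 25 were over 2000 bp from the start of their host, and 22 of the 25 lay in gaps of 1000 bp or longer. Over all 551 members the median distance from the host start was 3629 bp, and 75.3% lay in gaps of 1000 bp or longer. The 16 of 25 thus does not set the strongest peaks apart from other members by distance. In 3 of the 25, the nearest protein-coding start belonged to a gene other than the host.

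Of the 551 intronic peaks, 385 were among the 2719 strongest peaks of both replicates, a share of 69.9% with an interval of 65.9 to 73.7. The share over all 2719 thresholded peaks was 73%, in promoter windows 75.2% and in intergenic sequence 71.4%. Among the rest, 83 intronic peaks reached that rank in replicate 1 only, 78 in replicate 2 only and 5 in neither. Any peak of both full replicate lists, which held 19074 and 22137 peaks, matched 544 of the 551, or 98.7%. Over all thresholded peaks this match was found for 2700 of 2719, or 99.3%. The thresholded list was itself made with the replicate lists, so these shares are a description. The median signal was 41.0 in replicate 1 and 41.7 in replicate 2 for intronic peaks, and 43.8 and 45.8 in the same order for promoter peaks. For intergenic peaks it was 41.0 and 42.3, and for exonic peaks 39.8 and 41.7. Across peaks found in both lists, Spearman's rho between the replicate signals was 0.61 for intronic peaks and 0.72 for promoter peaks. It was 0.63 for intergenic and 0.62 for exonic peaks, and all of these peaks share the same 2 libraries.

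**Figure D1:**
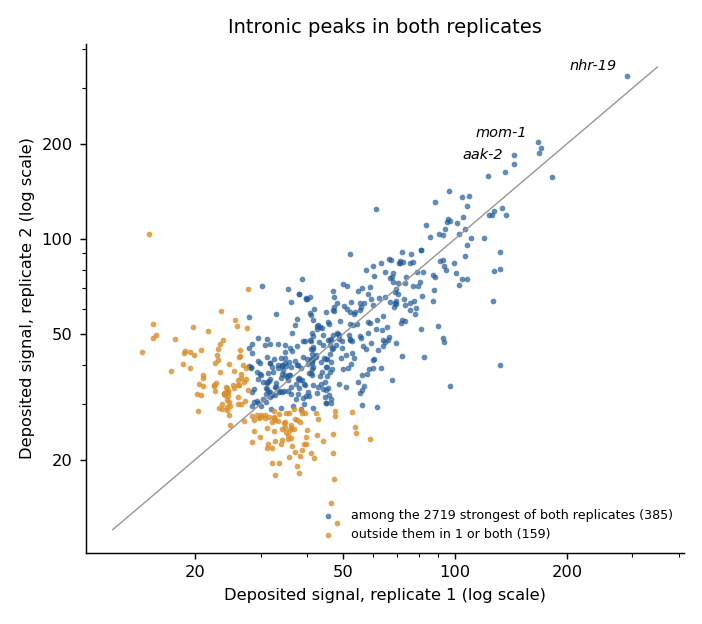
Deposited signal of each intronic peak in replicate 1 (x axis) and replicate 2 (y axis), both on log scales, with the grey line where both are equal. Blue points are the 385 peaks among the 2719 strongest of both replicates, orange points lay outside them in at least 1 replicate, and the 7 peaks with no match in a replicate list are not drawn. nhr-19 stands above all others in both replicates.

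The median signal of the intronic peaks was 80.2, with quartiles of 64.9 and 111.7. For promoter peaks the median was 86.9, with quartiles of 67.0 and 133, and the strongest peak had 621 in introns and 1108 in promoter windows. The median was 80.9 for intergenic peaks and 80.3 for peaks in exons outside promoter windows, close to that of introns. Intronic peaks made up 17.1% of the 679 strongest thresholded peaks and 22.8% of the 680 weakest. The weakest intronic members were in mstr-1 with 55.2, fem-1 with 55.2 and hpk-1 with 55.1. The strongest intronic peaks left out of the list were in dnj-16 with 54.9, C34B4.2 with 54.8 and F59B10.2 with 54.8. No gap in signal separated the peaks on either side of the threshold.

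Introns under the rule covered 29.996 Mb, or 29.9% of the genome, so the 551 summits had a density of 18.4 per Mb with an exact Poisson interval of 16.9 to 19.97. Promoter windows held 60.4 summits per Mb, intergenic sequence 27.8 and exons outside promoter windows 8.88. Outside promoter windows, introns held 38.8% of the summits and 38.1% of the bases. In intergenic sequence the shares were 45.0% of the summits and 29.2% of the bases.

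The density of intronic summits differed by the length of the gap. Gaps of 10000 bp or longer held 48 summits, or 53.4 per Mb with an interval of 39.4 to 70.8. Gaps from 3000 bp up to 10000 bp held 203, or 40.6 per Mb with an interval of 35.2 to 46.5. From 1000 bp up to 3000 bp there were 164 summits at 19.4 per Mb, and from 200 bp up to 1000 bp there were 128 at 10.6 per Mb. Gaps under 200 bp held 8 summits, or 2.24 per Mb. Gaps of 1000 bp or longer thus held 75.3% of the members in 47.9% of the intronic bases, and the median gap of a member was 2523 bp long. Gap length moves with many other features of a gene, and their part in the densities was not tested.

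The first gap of a gene held 192 members at 30.1 per Mb, the second 86 at 17.4 per Mb, and later gaps 273 at 14.6 per Mb. Within gaps from 1000 bp up to 3000 bp, the density was 32.9 per Mb in first gaps (25.01 to 42.6) and 15.8 per Mb in later gaps (12.97 to 19.2). Within gaps from 3000 bp up to 10000 bp it was 40.7 per Mb in first gaps and 40.5 per Mb in later gaps, and in gaps of 10000 bp or longer it was 59.0 and 47.6 per Mb for first and later gaps. The intervals of first and later gaps did not overlap in the shortest of these classes and did in the other 2. Along a gap from its 5′ to its 3′ end, the first of 3 equal parts held 15.5 summits per Mb, the middle part 20.03 and the last part 19.5. The median member lay 3629 bp after the start of its host, and 337 of the 551 were over 2000 bp from any protein-coding start. The share of intronic bases that far from any start was not computed, so this count shows no excess of distant summits. Up to 1000 bp after the host start there were 13.1 members per Mb of introns (10.4 to 16.2). Over 10000 bp after it there were 20.6 per Mb (16.3 to 25.7), and classes between these distances ran from 17.6 to 24.9 per Mb.

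By chromosome, the density was highest on X, with 116 members at 23.2 per Mb, and lowest on V, with 73 at 13.7 per Mb. When each chromosome was cut into 3 equal parts, the middle parts held 264 members at 31.1 per Mb and the outer parts 287 at 13.3 per Mb. The middle to outer ratio was 2.33 in introns, 1.32 in promoter windows and 1.39 in intergenic sequence. No test of the difference between these ratios was made.

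**Figure D2:**
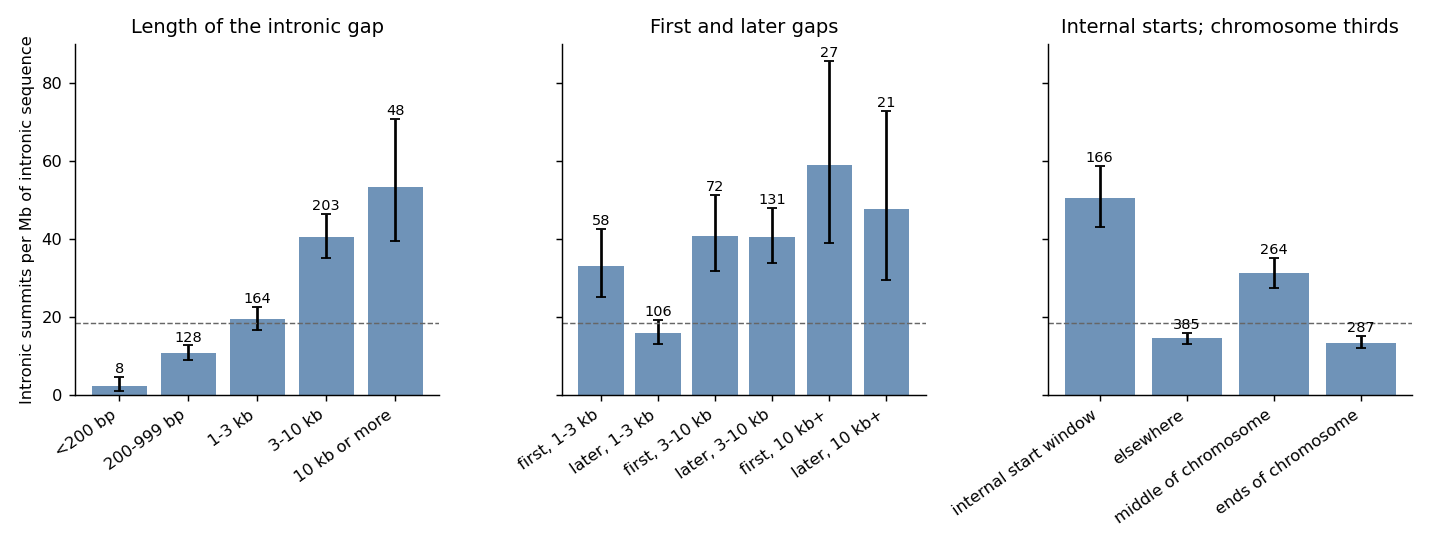
Intronic summits per Mb of intronic sequence (y axis) by gap length (left), by first or later gap within length classes (middle), and by internal transcript start window and by middle or ends of the chromosome (right). Error bars are 95% exact Poisson intervals for counting error, numbers above bars count members, and the dashed line is the 18.4 per Mb of all intronic sequence. Density rises with gap length from 2.24 to 53.4 per Mb.

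Many genes have transcripts that start inside the gene, downstream of the annotated gene start. A member counted as lying at an internal start when it fell from 1000 bp before to 200 bp after such a start of its own host. There were 166 of these among the 551, a share of 30.1% with an interval of 26.3 to 34.1. Those windows covered 10.98% of the intronic bases, and the density was 50.4 per Mb in them (43.03 to 58.7) and 14.4 per Mb elsewhere (13.01 to 15.9). The summit lay before the internal start in 160 of the 166, at a median of -332.5 bp, and 103 lay no more than 500 bp before it. The window reaches farther before a start than after it, and the rule drops summits in the exon that begins there, so this count shows no preference for the upstream side. Of the 137 strongest members 46 lay at an internal start, and of the 137 weakest 48 did. Annotated internal starts are not measurements of transcription in these larvae.

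Among the 25 strongest members, 7 lay at an internal start. The mnk-1 peak with a signal of 351 lay 94 bp before one, the srh-2 peak with 251 lay 96 bp before one, and the zip-2 peak lay 200 bp before one. srh-2, a chemoreceptor gene, held its peak in the shortest gap of any member, at 42 bp. lin-28, which encodes an RNA-binding protein of larval timing, had a summit 19 bp before an internal start with a signal of 111.7. Its replicate values were 61.1 in replicate 1 and 51.9 in replicate 2.

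Small RNA genes inside introns lay near a further set of summits. Within 500 bp of a noncoding RNA gene there were 49 members, 8.89% of 551 with an interval of 6.65 to 11.6. That sequence is 1.04% of the intronic bases, and its density was 157 per Mb (116 to 208) against 16.9 per Mb elsewhere. By class, 23 members lay near snoRNA genes, 14 near tRNA genes, 10 near miRNA genes and 1 each near a snRNA and a lincRNA gene. The densities were 274 per Mb for snoRNA (174 to 411), 197 for miRNA (94.6 to 363) and 109 for tRNA (59.6 to 183). Because the rule drops summits in any annotated exon, a summit within a small RNA gene itself is not a member.

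The summits near small RNA genes lay mostly before the RNA gene's start. Of those near snoRNA genes, which guide modification of ribosomal RNA, 18 of 23 were upstream, at a median of -23 bp. For 17 of the 23 summits, the snoRNA gene ran on the strand of the host. Of those near tRNA genes, 13 of 14 were upstream, at a median of -42 bp, and 7 of the genes ran on the host's strand. Near miRNA genes the summit was upstream in 9 of 10, with a median of -312.5 bp, and 7 summits lay from 300 to 500 bp upstream. The median signal was 73.3 near snoRNA genes, 73.4 near tRNA genes and 120 near miRNA genes, and the 10 peaks near miRNA genes ran from 90.4 to 165.

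F09A5.3 on X held the strongest of the miRNA group. A peak 313 bp before cel-mir-54 had a signal of 165, with 94.8 in replicate 1 and 80.0 in replicate 2. A second peak in the same gap of 9158 bp, 264 bp after the start of cel-mir-56, had 159, with 72.7 in replicate 1 and 84.7 in replicate 2. K01F9.2 held a peak 308 bp before cel-mir-90 with 158, and its values were 87.9 in replicate 1 and 68.9 in replicate 2. In 1 gap of ppfr-1, a regulatory subunit of protein phosphatase 4, a peak with 116 lay 315 bp before cel-mir-71 and another with 109 lay 324 bp before cel-mir-2. A peak with 90.4 lay 312 bp before cel-mir-229 in gcn-1, a gene named after its value was seen. In a range picked after the values were seen, 5 of the 10 summits lay from 300 to 330 bp before the annotated start of a miRNA gene.

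The strongest summit near a tRNA gene had a signal of 139, lay 80 bp before it in sulp-3 and had 60.5 in replicate 1 and 76.1 in replicate 2. Another, 72 bp before a tRNA gene in ZK1193.2, had 139, with 52.1 in replicate 1 and 89.4 in replicate 2. The strongest near a snoRNA gene was the zip-2 peak described above, which lay 453 bp after the start of K02F3.15. A summit 79 bp before the snRNA gene R07E5.16 in dhc-4, a dynein heavy chain gene, had 176, with 93.7 in replicate 1 and 82.3 in replicate 2.

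**Figure D3:**
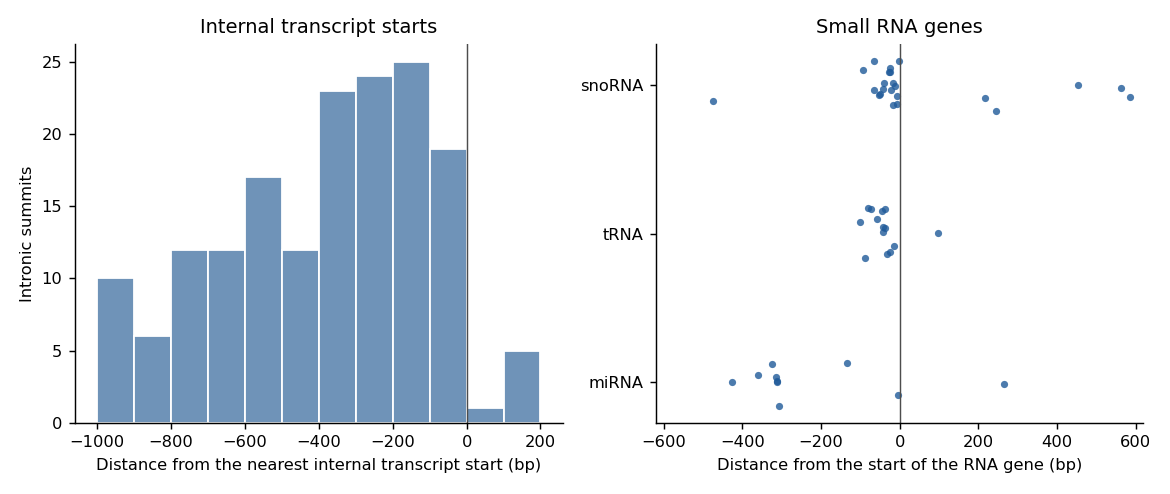
Left, number of intronic summits (y axis) by distance in bp from the nearest internal transcript start of the host (x axis, negative before the start), for the 166 members in that window. Right, each point is a summit at its distance in bp from the start of a snoRNA, tRNA or miRNA gene (x axis), with the vertical line at the start and points spread vertically for clarity. Most points of all 3 classes lie left of the line, and those near miRNA genes lie farther from it.

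The 551 summits lay in 407 host genes, 2.32% of the 17546 protein-coding genes with bases under the rule. Of the hosts, 317 held 1 member, 56 held 2 and 34 held 3 or more. The median host had 5230 intronic bases against 743 in all genes with such bases. A promoter window with a thresholded summit was present in 87 hosts, or 21.4% with an interval of 17.5 to 25.7, against 7.94% of all genes with bases under the rule. Among genes with 10000 or more intronic bases, 11 of 99 hosts (11.11%) and 24 of 350 other genes (6.86%) had such a window. From 3000 up to 10000 bases the shares were 20.5% of 171 hosts and 8.56% of other genes. From 1000 up to 3000 bases they were 29.5% of 105 hosts and 7.86% of other genes. Under 1000 bases they were 31.3% of hosts (10 of 32) and 7.37% of other genes. The share of hosts was the larger in all of these size classes, but no interval was computed within a class. The difference among genes with 10000 or more bases rests on 11 hosts and may be counting error. Of the 551 members, 137 had another member within 2000 bp. No background was set for this count, and it includes overlapping peak intervals. In miz-1, overlapping peaks of 203 and 115 matched the same replicate 1 peak of 132. Such peaks were counted as separate members throughout.

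T28B11.1 and zfp-1 held the most members, with 6 each. In T28B11.1 all 6 lay in its first gap of 17091 bp, with signals of 172, 207, 71.1, 106, 166 and 125 from the gene start on. In zfp-1, which encodes a chromatin protein related to human AF10, the signals were 72.7, 206, 134, 137, 97.5 and 245, in 2 gaps. The 2 zfp-1 peaks of 137 and 97.5 matched the same replicate 1 peak, with 69.4. pqn-41, a polyglutamine protein gene, held 5 in 1 gap of 7770 bp, with a highest signal of 208. lin-14 held 5, of which 4 lay in a gap of 10754 bp with 83.6, 215, 66.3 and 71.6, and the fifth had 55.5. In nhr-19 a single gap held all 3, with 621, 141 and 239. Of these genes, nhr-19, mnk-1 and lin-14 also had a thresholded summit in their promoter window, and zfp-1, T28B11.1 and pqn-41 had none.

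The hosts with 4 members were mnk-1, daf-5, ncl-1, lit-1, dnj-20, hlh-30 and H18N23.2. daf-5, a Sno/Ski protein of the dauer pathway, held 85.0, 185, 72.6 and 209 in its first gap of 14446 bp, and the last pair matched 1 peak of 131 in replicate 2. ncl-1, a Brat homologue that limits nucleolar size, had a strongest peak of 190 with 127 in replicate 1 and 63.5 in replicate 2. lit-1, a Nemo-like kinase of Wnt signalling, had a strongest peak of 160.3, with 71.0 in replicate 1 and 85.1 in replicate 2. hlh-30, the TFEB homologue of autophagy and lysosome genes, had a strongest peak of 101, with 46.0 in replicate 1 and 53.8 in replicate 2. dnj-20, a J-domain protein gene, had a strongest peak of 133, with 93.03 in replicate 1 and 48.4 in replicate 2. In H18N23.2 the strongest had 74.2, with 36.5 in replicate 1 and 44.1 in replicate 2.

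**Figure D4:**
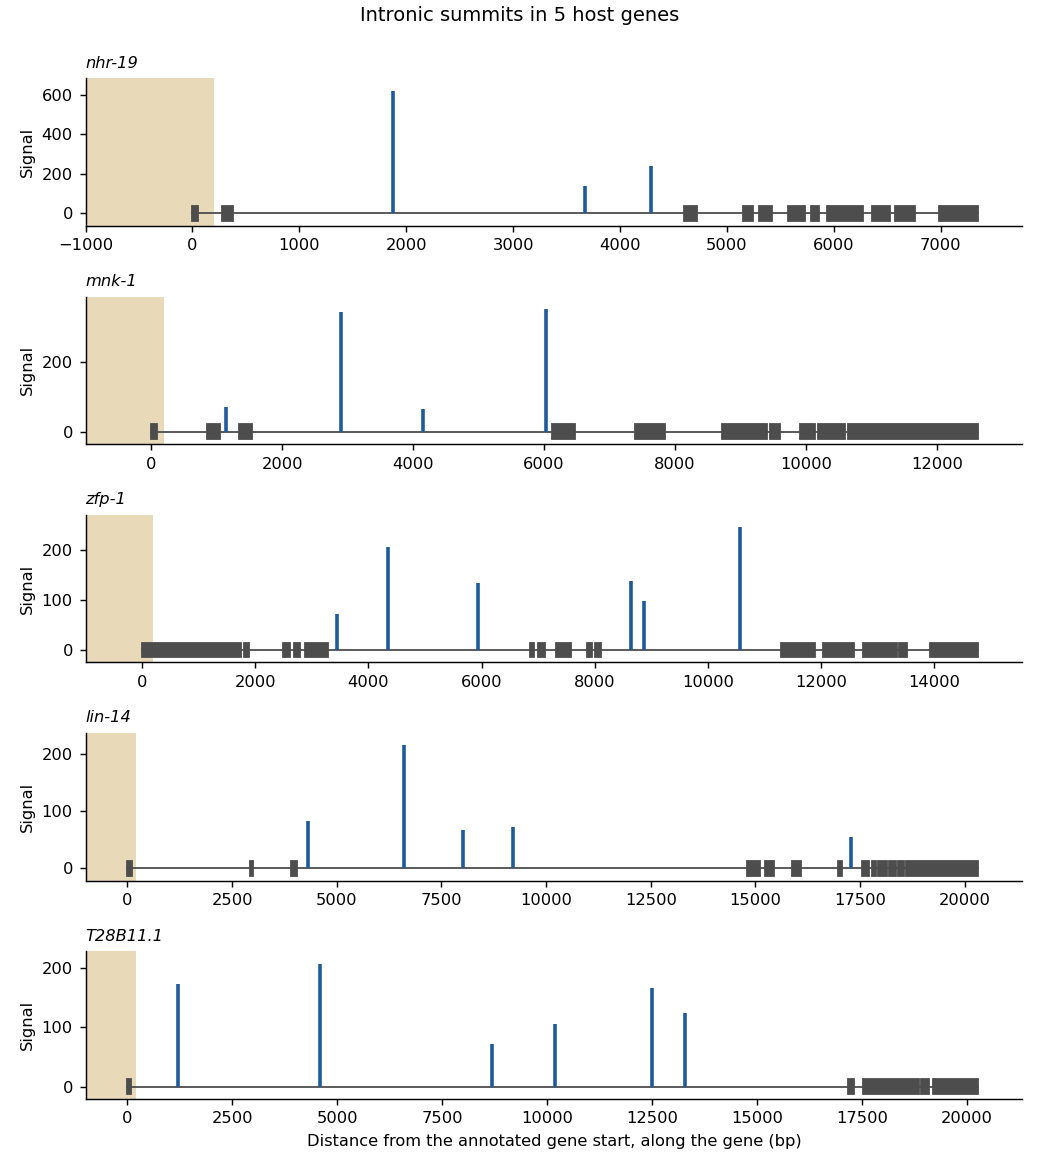
Position of each intronic summit (vertical blue line, height is the deposited signal on the y axis) along 5 host genes, with distance from the annotated gene start in bp on the x axis. Grey boxes are annotated exons of all transcripts, and the tan band is the promoter window from 1000 bp before to 200 bp after the start. All 6 summits of T28B11.1 lie in 1 long gap, and those of zfp-1 lie in 2.

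Hosts were described by gene lists, each read against the 2.32% of all genes with bases under the rule. Of 269 nuclear hormone receptor genes, 11 were hosts (4.09%, interval 2.06 to 7.20), with 16 members at 33.9 per Mb of their introns (19.4 to 55.001). After nhr-19 the strongest was nhr-3 with 142, which had 67.9 in replicate 1 and 75.6 in replicate 2. nhr-40 held 3 members, with 69.4, 92.6 and 93.5, all in its first gap. nhr-46 had 98.996, with 35.4 in replicate 1 and 69.3 in replicate 2, and nhr-17 had 95.8, with 52.7 in replicate 1 and 40.1 in replicate 2. nhr-11 itself held no member.

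Of 63 bHLH and bZIP genes with bases under the rule, 11 were hosts (17.5%, interval 9.05 to 29.1), with 17 members at 101 per Mb of their introns (58.7 to 161). Their lowest signal was 55.7 in hlh-30 and their highest was 260.1 in zip-2. skn-1, the Nrf homologue of oxidative stress, held 2 in its first gap, with 149 and 98.7. The stronger had 67.3 in replicate 1 and 85.7 in replicate 2. mdl-1, a MAD-like factor, had 115, and zip-1, a bZIP factor, had 115 with a summit 36 bp before an internal start. Of the 11 hosts, 7 also had a promoter peak, against 21.4% of all hosts. In the list as a whole, hosts included, 14 genes had one.

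Of 19 heterochronic genes, which order the larval cell fates, 6 were hosts (31.6%, interval 12.6 to 56.6), with 12 members at 102 per Mb (52.7 to 178). Beyond lin-14 and lin-28 above, myrf-1 had 132, with 72.1 in replicate 1 and 55.3 in replicate 2. sea-2 held 2 members, with 106 and 83.2. Of 30 Wnt signalling genes, 4 were hosts (13.3%), with 7 members at 64.1 per Mb (25.8 to 132), and apart from mom-1 and lit-1 these were cam-1 with 87.5 and dsh-1 with 58.1. Of 42 genes of axon guidance and adhesion, 9 were hosts (21.4%), with 10 members from 56.2 to the 96.1 of sax-3, the Robo receptor. Their density was 27.6 per Mb of introns (13.2 to 50.8), an interval that holds the 18.4 per Mb of all introns.

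Of 29 muscle markers, 7 were hosts (24.1%, interval 10.3 to 43.5), and their signals ran from 58.3 to 99.9, the highest in lev-11, tropomyosin. Their density was 44.2 per Mb of introns (17.8 to 91.1), which also holds the 18.4 per Mb of all introns. lev-11 differed between the replicates, with 27.8 in replicate 1 and 69.4 in replicate 2. act-4, an actin, had 75.7, with 41.2 in replicate 1 and 41.1 in replicate 2, and unc-120, a muscle transcription factor, had 70.01, with 33.8 in replicate 1 and 33.02 in replicate 2. Of 31 neuron markers, 3 were hosts, namely unc-43, rab-3 and shk-1, with a density of 21.1 per Mb (6.84 to 49.1). No host was found among 15 intestine, 12 hypodermis and 10 pharynx markers, and 1 of 18 germline markers, gld-2, was one. The lists are short, and a count of 0 allows up to 21.8% of the intestine, 26.5% of the hypodermis and 30.8% of the pharynx markers.

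Other lists held between 0 hosts and 1. Homeobox genes held 0 hosts of 90 over 233 kb of introns, which allows a share of up to 4.02% and a density of up to 15.8 per Mb. There was 1 host, srh-2, among 1339 chemoreceptor genes, with 2.06 members per Mb of their introns. No host was found among 235 C-type lectin genes or 179 detoxification genes. Of 37 ribosomal protein genes with bases under the rule, 1 was a host, a share of 2.70% (0.0684 to 14.2) whose interval holds the 2.32% of all genes. That host was rpl-19, with a signal of 103, and with 41.8 in replicate 1 and 59.9 in replicate 2. The lists differ in intron length, and the part of that in the counts was not tested.

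unc-119, the gene whose ed3 mutation the strain carries, held 1 member in its first gap, 829 bp after the gene start. Its signal was 126, with 62.6 in replicate 1 and 64.8 in replicate 2. The number of copies of unc-119 in the strain was not measured here.

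The sequence at intronic summits differed in base composition from its surroundings. The median GC content within 50 bp of a summit was 45.5%, against 35.6% in flanks 300 to 400 bp away, and all intronic bases held 31.9%. Promoter summits had 46.5% against 35.1% in flanks. In the intronic peaks, 539 of 551 summit windows were made only of 31-base stretches that occur once in the genome. The motif shares that follow were measured in windows with this difference in GC content, and its part in them was not tested.

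Of 18 motifs read on both strands, the worm promoter motif CTGCGTC was present in 9.98% of intronic summit windows (7.61 to 12.8), against 0.454% of flanks and 0.761% of all intronic windows of the same length. Promoter summits held it in 11.5% and intergenic summits in 11.3%. The GAGA repeat GAGAGAGA was present in 10.7% of intronic summit windows (8.25 to 13.6), against 0.998% of flanks and 0.603% of all intronic windows, and in 5.23% of promoter and 12.2% of intergenic summit windows. The E-box CACGTG, a site that bHLH factors bind, was present in 7.44% (5.39 to 9.96), against 1.91% of flanks and 1.37% of all intronic windows, and in 4.85% of promoter and 6.89% of intergenic summit windows. The E-box CAGCTG was present in 4.54%, against 2.36% of flanks and 1.38% of all intronic windows. The GC box GGGCGG was present in 5.63% (3.85 to 7.89), against 2.09% of flanks and 1.62% of all intronic windows. It was present in 5.85% of promoter and 5.01% of intergenic summit windows. For CTGCGTC, GAGAGAGA, both E-boxes and the GC box, the interval at intronic summits lay above both kinds of background.

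The nuclear receptor core site AGGTCA was present in 2.36% of intronic summit windows (1.26 to 4.001), against 2.90% of flanks and 2.31% of all intronic windows. The extended site AAGGTCA, which holds AGGTCA, was present in 0.544%, against 0.998% of flanks and 0.646% of all intronic windows. The interval of each site at summits (0.112 to 1.58 for the extended one) held both of its backgrounds. The intestinal GATA site TGATAA was present in 9.44% of summit windows, against 9.53% of flanks and 8.78% of all intronic windows. The TATA box TATAAA was less frequent at summits, in 4.17% against 10.1% of flanks and 12.7% of all intronic windows. The 3′ splice site TTTCAG was present in 5.08% against 18.4% of flanks and 23.6% of all intronic windows. Splice sites in use lie at gap ends, and 24 of the 551 summits lay within 50 bp of one. Flanks were not confined to introns, and the lower quartile of the distance from summit to 3′ gap end was 301 bp. The part of position in the TTTCAG shares was not tested. The Pol III B box was present in 0.544%, against 0% of flanks and 0.162% of all intronic windows. The letters of a motif were matched exactly, and a match or its absence describes the window only.

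**Figure D5:**
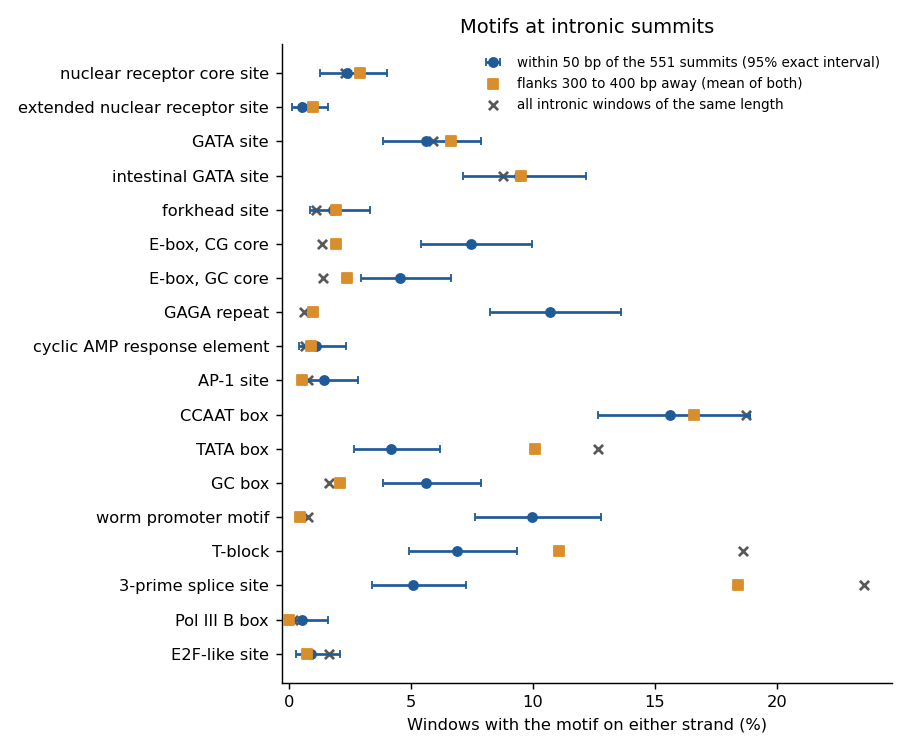
Share of windows (x axis, %) that hold each of 18 motifs (y axis), on either strand. Blue points with bars are the windows within 50 bp of the 551 intronic summits with 95% exact intervals, orange squares are flanks 300 to 400 bp away, and crosses are all intronic windows of the same length. The intervals of the GAGA repeat, the worm promoter motif, both E-boxes and the GC box lie right of both backgrounds. Those of the splice site, T-block and TATA box lie left of both. Flanks were not confined to introns, and few summits lay near a gap end, where splice sites in use lie.

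Because these motifs were picked with earlier results of the same peaks known, the 10 6-base words that stood out most at promoter summits among 2080 were also read in introns. GAGAGA was present in 35.6% of intronic summit windows (31.6 to 39.7), against 5.08% of flanks and 4.17% of all intronic windows, and in 25.5% of promoter and 36.3% of intergenic summit windows. GACGCA, which is part of the reverse complement of CTGCGTC, was present in 12.9%, against 1.81% of flanks and 1.85% of all intronic windows. All 10 words were more frequent at intronic summits than in flanks. Many of them overlap in their letters, such as GAGAGA with AGAGAG and GACGCA with ACGCAG, so they are not 10 separate results. The promoter and intronic peaks come from the same 2 libraries and are not independent experiments.

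CTGCGTC was present in 22 of the 137 strongest members (16.1%, interval 10.3 to 23.3) and 9 of the 137 weakest (6.57%, interval 3.05 to 12.1), and these intervals overlapped. It was present in 0 of the 49 members near a noncoding RNA gene, which allows a share of up to 7.25%. GAGAGA was present in 58 of the 137 strongest members and 46 of the 137 weakest. At internal starts it was present in 71 of 166, and elsewhere in 125 of 385. Both GAGAGA and CTGCGTC were present in 32 members, and 219 held at least 1 of them.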

How the data were processed

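ChIP-seq peak lists of eGFP-NHR-11 from 2 biological replicates were read in build ce11, per the labels. The authors deposited for each list a signal value, here a score whose scale is not stated, and a −log10 q value. The authors called peaks per replicate and on both replicates together, and kept 2719 by IDR, per the deposited texts. Neither aligner, peak caller nor IDR threshold was given in the sources used here. The lists hold no read counts, so depth is unknown. The ce10 lists and the control were not used.

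Summits were placed on Ensembl release 115 genes of WBcel235, which has the sequence of ce11. Intervals are 95% exact, and no test across groups was run. For the share in both replicates, a member was matched if a summit among a replicate's 2719 strongest peaks fell inside the member's interval. Replicate signals and ranks came from the full list of each replicate, from the strongest peak with its summit in that interval. Named genes were hosts of the 25 strongest members, hosts with 3 or more members, up to 4 hosts per list, up to 3 strongest members per noncoding class, the peaks next to the threshold, and nhr-11 and unc-119. The text names a selection of the hosts with 3 or more members. All lists, motifs and members were chosen with earlier results of these data known. Classification code was tested on simulated data. Python 3.11.15, numpy 2.4.6, pandas 2.3.3, scipy 1.17.1 and matplotlib 3.10.9 were used, and sequence came from RefSeq. Alternatives changed the summit definition, promoter window, starts used, list depth, replicate and distances.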

Additional observations from a re-analysis of the deposited data

How the results depend on the processing

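Of 73 alternative values under 12 settings, 60 lay within the interval of the reported value, or within 1.5 times for the number of hosts. The intron share was 18.5% with a promoter window of 2000 bp and 14.2% when every annotated transcript start had a window, which by construction drops the 166 members at internal starts and leaves 385. That last setting put 81.3% of members in gaps of 1000 bp or longer. In the stronger part of the list (1359 peaks) the median signal was 115, the share in both replicates 99.2%, the share with AGGTCA 1.17% and the hosts 204. Full replicate lists gave 98.7% in both replicates. The share at internal starts was 19.2% within a window of 500 bp before to 100 bp after. Near noncoding genes it was 6.17% within 100 bp. AGGTCA was present in 5.99% of windows within 100 bp. Each of these narrower or wider settings changes the sequence or peaks counted, and no other cause was tested. Leaving out replicate 1 or 2, using the other replicate's 2719 strongest peaks, the share in introns ran from 20.3% to 20.4%, at internal starts from 30.25% to 30.27%, in first gaps from 34.4% to 35.5%, in gaps of 1000 bp or longer from 75% to 75.3%, near noncoding genes from 7.61% to 8.29%, with AGGTCA from 1.81% to 2.34%, and hosts from 401 to 405. The median signal ran from 41.1 to 41.3, on the scale of single replicates. No paired analysis was possible because there is 1 group. The lists give no depth, so counting error of a single peak could not be set.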

Other observations

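In the list called on both replicates together, the share of summits in introns was larger at lower signal. The authors deposited that list as peaks and background for input to IDR, so its entries can include background. Cut by signal into 5 equal parts, it held 20.3% intronic summits in the strongest part, then 22.6%, 24.97%, 25.9% and 27.1% in the weakest. Promoter windows held 47.8% in the strongest part and 25.2% in the weakest. Of the genome, 29.9% was intronic under the rule and 21.5% lay in promoter windows. The part of background in the trend was not tested. Beyond the thresholded members, 2728 intronic entries were in that list.

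Of 551 members, 7 had no match in a full replicate list, 3 of them in replicate 1 and 4 in replicate 2. The strongest of these lay in daf-12 and daf-5, both with 72.6, genes named after their values were seen for this count. CTGCGTC read on the host gene's strand only in 39 members, on the other strand only in 15 and on both in 1, while GAGAGA read on the host strand only in 76, on the other strand only in 108 and on both in 12. A summit lay within 50 bp of the end of its gap in 24 members, and the peak interval touched an exon in 184.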
